A study of Camponotus floridanus with 64 samples.

Results

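The genes described here are the most abundant ones of the brain of 1-day-old minor workers of the carpenter ant Camponotus floridanus. They were chosen as the gene identifiers made of the prefix Cflo_ and digits only whose mean deposited value over 5 minor brains was 6 or more on a log2 scale. This gave 156 of 16925 such numbered identifiers, in a table of 18130 identifiers of every form. A further 36 identifiers of other forms, 21 of them named as rRNA, reached the same value and were left out by the form of their name. The members were thus chosen by their deposited values in those 5 minor libraries, and these values are given as a description only.

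Camponotus floridanus has worker castes that share a colony and differ in body size and work: minors, which are small and do most of the foraging, and majors, which are large-headed. Scouts are the workers that leave the nest first to look for food. Trichostatin A (TSA) inhibits histone deacetylases, the enzymes that remove acetyl groups from histones, and C646 inhibits the histone acetyltransferases CBP and p300, which add them. The most abundant messenger RNAs of a nervous system usually encode products that most of its cells use, such as ribosomal, respiratory chain and cytoskeletal proteins, together with products made in bulk by a few cell types.

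All libraries were strand-specific, poly(A)-selected RNA-seq of single central brains, each library from 1 ant. The day 1 libraries came from callow, untreated workers of colony SB2, 5 minors and 5 majors, whose descriptions name no linear amplification. The protocol text that all samples share does mention it, so its absence rests on the sample descriptions. A further day 1 minor brain of colony SB2 had been divided into portions: 75% of the brain with no amplification named, 4 portions of 4% and 1 portion of 1% with linear amplification of the DNA (LinDA). The scouts were minor workers that had fed for 45 days on sugar water with solvent or inhibitor. The 5 control scouts received 0.5% DMSO alone and were 78 days old, from colonies SB2 (3 ants), SB6 (1) and SB7 (1). The 10 TSA scouts received 50 µM TSA and were 68 to 73 days old, from colonies SB1 (4), SB2 (4) and SB4 (2). The 6 TSA+C646 scouts received 50 µM TSA with 50 µM C646 (4 ants) or 100 µM C646 (2 ants) and were 57 to 66 days old, from colonies SB1 (3), SB4 (2) and SB6 (1). The labels also put the start of feeding at 25 to 30 days of age, and 45 days later the ants would be older than the labelled age of every TSA+C646 scout, so ages are given as labelled and are uncertain. As labelled, the 3 arms had no age in common, and treatment and age cannot be told apart. Each scout library was made from 15% of a brain with 1 round of LinDA.

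None of the 156 members matched any of the 14020 genes of the RefSeq table, and the files pair the identifiers with no gene name, so no function can be given for a member. Defining markers of neurons, glia, muscle, fat body and photoreceptors could not be looked up by name either, so the tissue label was not checked that way. The tables for day 1 castes, for the divided brain and for scouts had been normalized separately. Levels are therefore compared between tables by rank among the numbered identifiers, with no test. Whether the deposited scale is per transcript length is not given in the sources used here, so the order of members is an order of deposited values. In whole-brain RNA, fewer cells of a type and less RNA per cell cannot be told apart.

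Several libraries stood apart. Majors 1 to 3 had 5459 to 6528 detected identifiers, while the 5 minors had 10462 to 11259 and majors 4 and 5 had 10216 and 11768. Scout library 15, a TSA+C646 library at 100 µM C646, had 2791, against 7511 to 12327 in the other 20 scouts. TSA libraries 9 and 10 and TSA+C646 library 16 carried added constants of 0.48 to 0.91 on the log2 scale, and library 15 one of -0.33. Detected means a value above the block at the bottom of a library in which values follow the order of the table, taken as ties. Undetected identifiers can hold deposited values above 0. In library 15 the median deposited value of the members was 0.83, although 84 of 156 were undetected. The tables hold normalized values and no read counts, so the depth behind each value is unknown, and the main values are given also without these libraries or with the constants removed.

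Among the members, levels fell steeply from the first. Cflo_13243 had a mean value of 19.19 ± 0.01 (SD, n = 5 minors), Cflo_11535 14.75 ± 0.18 and Cflo_14737 14.35 ± 0.43. On a linear scale Cflo_13243 alone held 82.9% to 85.7% of the summed values of the numbered identifiers in each minor, and the 156 members together held 96.1% to 96.3%. All libraries of a table had been given 1 shared distribution of values, so the top gene of each library takes nearly the same value, and the SD of Cflo_13243 reflects its rank in all 5 minors rather than its RNA level.

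The next 7 members lay close together. They were Cflo_04374 with a mean of 10.75 ± 0.60 (SD, n = 5 minors), Cflo_03949 with 10.31 ± 0.53, Cflo_08362 with 10.28 ± 0.89, Cflo_02364 with 10.19 ± 0.19, Cflo_08255 with 10.16 ± 0.61, Cflo_05279 with 9.62 ± 0.58 and Cflo_14849 with 9.55 ± 0.51. From Cflo_04374 on, each of these 7 differed from the next by less than the SD of either. Of all members, 8 had a mean of 10 or more, 25 had 8 to under 10, 37 had 7 to under 8 and 86 had 6 to under 7.

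**Figure D1:**
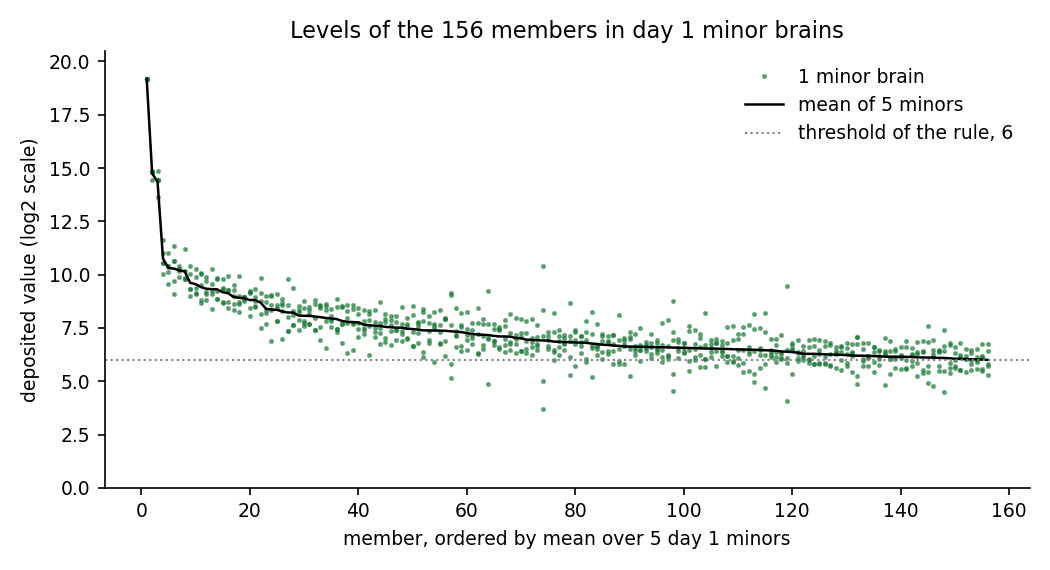
Deposited value (log2 scale) of each of the 156 members in the 5 day 1 minor brains, with members ordered by their mean (black line) and each point 1 brain; the dotted line is the threshold of 6. The curve drops from 19.19 for Cflo_13243 to 10.75 for the fourth member and then declines more slowly, to 6.001 at the last.

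The edge of the set is not a gap. The 3 members just inside had means of 6.001 (Cflo_05647), 6.01 (Cflo_06635) and 6.03 (Cflo_15961), and the 3 identifiers just outside had 5.97 (Cflo_10800), 5.96 (Cflo_00620) and 5.95 (Cflo_16972). Only 90 members were at 6 or more in every minor, and 6 were at 6 or more in no more than 2 minors. When the same rule was applied to 4 minors at a time, 149 to 160 genes were chosen, and 76.3% to 89.6% of them reached 6 in the minor left out.

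The spread of the members over the 5 minors, which chose them, is given as a description beside that over 4 repeated portions of 1 brain. The median SD of a member was 0.57 over the minors and 0.18 over the portions of 4%. Of the 155 members detected in all 9 of these libraries, 91.6% had the larger SD over brains, against 41.4% of the 8882 numbered identifiers so detected. These 8882 identifiers were not matched to the members by level, so the 2 shares are not like for like. Their median SD was 0.145 over the minors and 0.186 over the portions. Minors and portions were normalized in different tables, and LinDA is named for the portions alone. Cflo_06341 varied most: its values were 10.39, 5.00, 8.34, 3.71 and 7.12 in minors 1 to 5, an SD of 2.65, against 10.77, 11.32, 11.73 and 11.20 in the portions. Minor 1 was the highest and minor 4 the lowest, with the other 3 spread between them. Cflo_07007 followed with 6.45, 6.07, 9.46, 5.87 and 4.07, an SD of 1.95. Its spread came from minors 3 and 5, the highest and the lowest. Cflo_08859 was the steadiest after Cflo_13243, with 8.77, 8.93, 8.95, 8.94 and 8.88 (SD 0.08).

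In the divided minor brain nearly all members were found, and 55 to 60 of them were among its most abundant genes. Of the 156, 154 were detected in all 6 portions, 1 in 5 of them and 1 in none. The 156 most abundant numbered identifiers of the 75% portion held 55 members, and those of the 4% portions held 60. Cflo_13243 and Cflo_11535 ranked 1 and 2 there, as in minors. Single minor libraries shared 113 to 128 of their 156 most abundant identifiers with each other but 50 to 58 with the 75% portion, which like them was a day 1 minor of SB2 with no LinDA named. The 75% and 4% portions shared 131 to 138, with and without LinDA. The median percentile of the members among numbered identifiers was 98.2 in the 75% portion, with a lower quartile of 94.9, and 58 members were at the 99th percentile or higher. Across members, the Spearman correlation of the minor mean with the 75% portion was 0.30 (n = 156 genes, which are not independent replicates). Choosing the members by that minor mean narrows its range, so the correlation is a description only. Cflo_14886, the member found in no portion, was picked out after its values were seen. It was detected in all 5 minors at 4.54 to 8.76 and in majors 4 and 5, and in none of the 6 portions and none of the 21 scouts.

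In majors, the members split by library. The number of undetected members was 40, 32 and 25 in majors 1, 2 and 3, 3 in major 4 and 0 in major 5, against 0 in every minor. Among all numbered identifiers, the undetected share in the same libraries was 68.4%, 63.4%, 61.9%, 40.5% and 31.8%, against 34.6% to 39.2% in the minors. How far the low detection of majors 1 to 3 sets the members' values there was not tested.

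Where a major detected a member, its value was mostly high. The rule asked for high values in minors normalized together with these majors. The like share over other identifiers is not given here, so this is a description only. Of 156 members, 103 were detected in all 5 majors, and 53 in some of them. In 52 of those 53, the lowest value among the majors that detected the gene was still 2 or more, with a median of 5.94.

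Cflo_08362 had deposited values of 0.01, 0.02, 0.00, 11.57 and 10.43 in majors 1 to 5, and of 9.09, 10.64, 10.66, 11.33 and 9.70 in minors 1 to 5. Majors 4 and 5 lay within or just above the minors, and majors 1 to 3 were undetected. Cflo_08255 had 0.00, 0.01, 0.00, 9.96 and 9.91 in the majors and 9.82, 9.78, 10.16, 11.22 and 9.80 in the minors. It showed the same pattern of libraries. In all, 13 members were undetected in each of majors 1 to 3. The most abundant member moved in a single major: Cflo_13243 was 19.17, 13.68, 19.17, 19.19 and 19.22 in majors 1 to 5. In major 2 it held 15.4% of the summed linear values, against 83.8% to 87.9% in the other 4 majors. The sum over numbered identifiers was 85501 in major 2 and 672749 to 727730 in the others. The top value of the shared distribution was thus not held by a numbered identifier in major 2. The share follows the place of Cflo_13243 in that distribution and is not a measure of its RNA level.

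**Figure D2:**
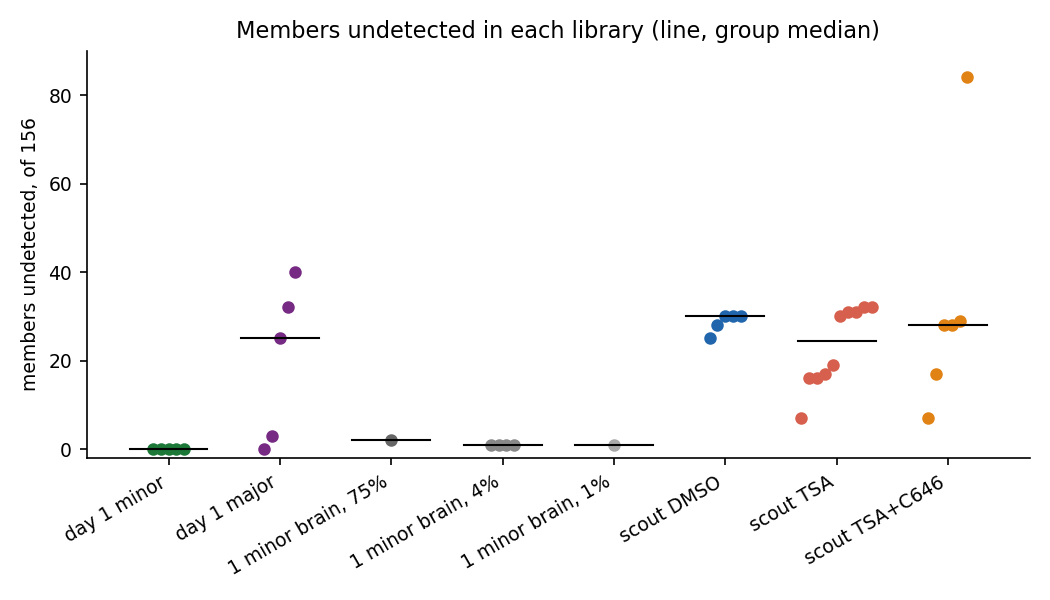
Number of the 156 members undetected in each library, by group; each point is 1 library and the line is the group median. Minors had 0, majors 1 to 3 had 25 to 40, the portions of 1 minor brain had 1 or 2, the DMSO scouts 25 to 30, and TSA+C646 library 15 had 84.

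The comparison of majors with minors uses the minor values that chose the members, so its values are given as a description and nothing is read from them. A gene picked for high values in 5 libraries is more often lower than higher in others. The mean was lower in majors for 137 of 156 members and higher for 19, with a median difference of -1.18 on the log2 scale, against -0.22 over the 3694 genes tested. With majors 4 and 5 alone, 82 members were lower and 74 higher, and the median difference was -0.085. All 5 majors lay below all 5 minors for 11 members, where the share over all genes tested was 4.14%, and above them for 0, where it was 1.25%. With majors 4 and 5 alone, 13 lay below all minors, against 9.8% of all genes, and 5 above, against 7.53%. By limma with Benjamini-Hochberg adjustment, 0 members passed an adjusted p of 0.05 (0.0541% of all genes did). At an unadjusted p under 0.05, 44 members were lower (12.2% of all genes) and 0 higher (4.33%). Without major 5, 6 members passed as lower, where 0.839% of all genes did.

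At the ends of that order stood the same library pattern and a pair of high genes. The lowest differences were those of Cflo_08255, -6.18, and Cflo_08362, -5.88, and with majors 4 and 5 alone these became -0.22 and 0.71. The highest were those of Cflo_06341, 2.49, and Cflo_14439, 1.53. Cflo_06341 was 11.95, 8.18, 10.52, 8.17 and 8.19 in majors 1 to 5, and its range overlapped that of the minors. Cflo_14439 was 7.97, 8.24, 8.45, 5.03 and 8.54 in majors and 5.44, 7.61, 5.74, 4.92 and 6.85 in minors. Major 4 alone fell within the minors' range, and the other 4 majors lay above it.

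In the 78-day-old DMSO scouts, the members held a wide range of ranks. Their median percentile among numbered identifiers was 94.4, with quartiles of 80.3 and 98.3, where in minors all were above 99. Of 156 members, 25 were at the 99th percentile or higher, 93 at the 90th or higher, and 10 below the 50th. The 156 most abundant identifiers of DMSO scouts held 22 members, those of TSA scouts 24 and those of TSA+C646 scouts 25. Single DMSO scouts shared 110 to 124 of their 156 most abundant identifiers with each other, 14 to 26 with single minors and 39 to 45 with the 75% portion. Across members, the Spearman correlation with the DMSO scout mean was 0.18 for the minor mean and 0.65 for the 75% portion (n = 156 genes each). Age, task, feeding with DMSO, amplification, input and the table of origin differ together between day 1 and DMSO scout libraries and cannot be told apart. Colony differs in part, since the DMSO scouts include ants of SB6 and SB7. The 75% portion shares age, caste, colony and, per its description, the absence of amplification with the 5 minors; its table of origin and the portion of the brain differ.

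The members that kept a top rank in scouts included the first of the list. Cflo_13243 was 15.88, 15.63, 15.81, 15.83 and 15.82 in DMSO scouts 17 to 21, and held 38.02% to 43.44% of their summed linear values. Cflo_11535 was 13.10, 13.09, 13.03, 13.29 and 13.04. By their DMSO scout means they ranked 1 and 4 among the numbered identifiers. Cflo_13302 gained most in rank, from rank 112 of the numbered identifiers in minors to rank 17 in DMSO scouts, where its values were 8.15, 8.39, 8.30, 7.87 and 9.07. In the 75% portion its rank was 8. Cflo_14439 came next, from rank 145 in minors to rank 52 in DMSO scouts, with values of 6.78, 6.54, 6.32, 7.52 and 8.66. In all, 15 members stood among the 156 most abundant identifiers of majors, of DMSO scouts and of the 75% portion as well.

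At the other end, 8 members were undetected in all 5 DMSO scouts. How many of all numbered identifiers were undetected in all 5 is not given here. Cflo_02756, with 7.80, 6.54, 8.64, 8.33 and 8.52 in minors 1 to 5, had deposited values of 0.00 to 0.02 in the DMSO scouts. It was detected in 6 of the 21 scouts. Cflo_12385, with 7.09, 8.42, 8.14, 7.73 and 7.43 in minors, also had 0.00 to 0.02 in DMSO scouts, and was detected in 9 of the 21. In the portions of the divided brain, LinDA portions included, Cflo_02756 was 4.11 to 4.96 and Cflo_12385 5.34 to 6.29.

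Detection in DMSO scouts differed little between bands of the level in minors. Of the 156 members, 64 were detected in all 21 scouts, 29 in 20, and 22 in 10 or fewer. Without library 15, 92 were detected in all 20 scouts and 22 in 10 or fewer. The bands hold only numbered identifiers detected in all 5 minors. In DMSO scouts the undetected share was 15.2% of those at 8 or more in minors and 19.2% of those from 6 to 8. It was 17.2% of those from 4 to 6 and 22.4% of those from 0.5 to 1. In the 4% portions the share stayed under 1% in each of these bands. Members undetected in at least 1 major numbered 53 and those undetected in at least 1 DMSO scout 50, and 39 were in both lists, 73.6% of the first and 78% of the second. Pairs of DMSO libraries shared 56% to 73.3% of the shorter of their lists of undetected members. Of all numbered identifiers, 48.3% to 54.8% were undetected in single DMSO libraries. The same overlaps over all numbered identifiers are not given here, so the overlaps are not read as a trait of the members. There were 63 members detected in all 37 libraries, and 86 in the 36 without library 15.

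Cflo_08362 and Cflo_08255 were again present in some libraries and at the bottom in others. In DMSO scouts 17 to 21, Cflo_08362 was 0.02, 0.02, 8.49, 0.00 and 6.89. Over all 21 scouts it was undetected in 10 and 4.14 to 9.11 in the 11 others after the library constants were removed. Cflo_08255 was 0.02, 0.02, 5.89, 0.00 and 0.00, and was detected in 5 of 21 scouts. In all, 42 members were detected in some but not all DMSO scouts, and 19 of these were at 2 or more wherever detected. The like share over all numbered identifiers is not given here.

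**Figure D3:**
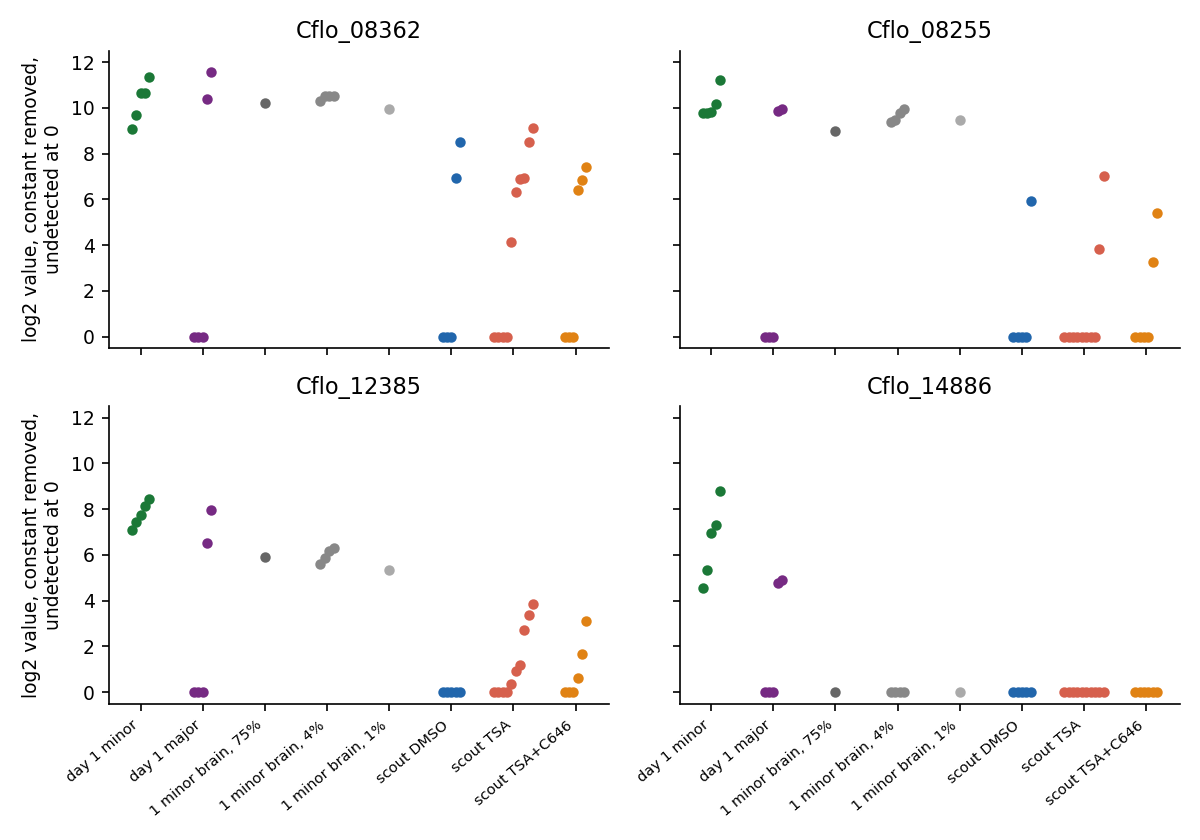
Value (log2 scale, library constant removed, undetected set to 0) of 4 members in every library by group, each point 1 library. Cflo_08362 and Cflo_08255 are at 0 in majors 1 to 3 and above 9.8 in majors 4 and 5; Cflo_12385 is at 0 in all DMSO scouts; Cflo_14886 is at 0 in all portions and all scouts.

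The smallest ranges over the 21 scouts, among members detected in all 37 libraries, belonged to Cflo_03949, Cflo_09466 and Cflo_10254. Cflo_03949 lay between 3.33 and 4.13 in every scout, a range of 0.80, although it was the fifth most abundant member of minors. Cflo_09466 lay between 3.40 and 4.67, and Cflo_10254 between 4.61 and 5.92. In each of these genes the ranges of the 3 arms overlapped. This order rests on the library constants: with them removed, the range of Cflo_03949 was 1.36, in place 13 of the 63, that of Cflo_09466 0.97, in place 4, and that of Cflo_10254 1.08, in place 6. Cflo_13243 then had the smallest, 0.83.

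Whether the inhibitors moved the members was tested by limma on the scout table, over the 4899 genes with a mean value of 1 or more, and 135 of the 156 members passed that filter. These values played no part in choosing the members. With Benjamini-Hochberg adjustment, 0 of the 135 members passed an adjusted p of 0.05 in TSA against DMSO, in TSA+C646 against DMSO and in TSA+C646 against TSA, and neither did any other gene tested (0% in each). The comparisons share their DMSO or TSA scouts and are not independent of each other.

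For TSA against DMSO, 91 members were higher and 44 lower, with a median difference of 0.14 on the log2 scale, the same as the 0.14 over all genes tested. With the library constants removed and undetected values set to 0, the split was 64 higher and 71 lower, and both medians were near 0, -0.03 for members and -0.02 for all genes. Without libraries 9, 10, 15 and 16, it was 79 higher and 56 lower, with medians of 0.036 and 0.032. At an unadjusted p under 0.05, 1 member was higher, where 2.71% of all genes were, and 0 were lower, where 0.551% were. Within colony SB2, the only colony in both arms, the median difference was 0.26 over members and 0.20 over all genes, and 0 members passed. With colony as a block the split was 106 and 29, with medians of 0.24 and 0.17.

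Cflo_08920 had the smallest p among the members. It was 2.40, 2.25, 0.91, 1.69 and 0.00 in DMSO scouts, and its lowest, median and highest values in the 10 TSA scouts were 0.96, 2.91 and 4.67. The groups overlapped, and the highest DMSO scout lay below the TSA median. The difference was 1.44 (SE 0.61), with a limma p of 0.0286 and a Benjamini-Hochberg adjusted p of 0.995. Cflo_10383, next among the higher, differed by 0.54 (SE 0.28). Of the lower ones, Cflo_10571 differed by -1.42 (SE 0.78), and TSA library 1, where it was undetected at 0.032, was the lowest of its 10 values. Cflo_04131 differed by -0.48 (SE 0.27).

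For TSA+C646 against DMSO, 75 members were higher and 60 lower, with a median difference of 0.08, against 0.05 over all genes. With the constants removed and undetected values set to 0, 62 were higher and 73 lower, with medians of -0.057 and -0.11. With colony as a block the split was 99 and 36, with medians of 0.24 and 0.16, and without libraries 9, 10, 15 and 16 it was 67 and 68, with medians of -0.018 and 0.0071. The sign of the members' median thus changed with the setting. At an unadjusted p under 0.05, 3 members were higher, where 2.33% of all genes were, and 0 lower, where 0.735% were. The 2 doses of C646 gave medians of opposite sign: 0.22 over members at 50 µM and -0.22 at 100 µM, and over all genes 0.23 and -0.38. The 100 µM arm is 2 ants of colony SB4, and 1 of them is library 15, in which 84 of 156 members were undetected. SB6, the only colony in both arms, has 1 ant in each, too few for a value of its own. Without library 15 the median difference was 0.14 and without library 16 it was -0.11.

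Cflo_02699 was 0.22, 0.52, 0.84, 0.68 and 2.41 in DMSO scouts and 1.52, 1.59, 1.93, 2.09, 2.31 and 1.45 in TSA+C646 scouts. As deposited, all 6 lay above 4 of the DMSO scouts and below the fifth. With the constants removed, library 16 was at 0.54, below 3 DMSO scouts, and library 15 at 2.64, above all 5. The difference was 0.88 (SE 0.32), with a limma p of 0.0120 and an adjusted p of 0.999 by Benjamini-Hochberg. Cflo_16552 was 1.71, 2.58, 0.00, 0.00 and 3.25 in DMSO and 3.84, 4.33, 1.61, 2.50, 5.18 and 3.37 in TSA+C646 scouts, a difference of 1.96 (SE 0.83). The groups overlapped. Among the lower members, Cflo_12751 differed by -0.83 (SE 0.49) and Cflo_11443 by -1.53 (SE 0.92). Without library 15 these were -0.29 and -0.41. In Cflo_11443, library 15 was at 0.00, while the other TSA+C646 scouts were at 6.41 to 7.21 and the DMSO scouts at 6.51 to 7.54. Cflo_12751 was undetected in library 15, where its deposited value was 1.01, and the others were at 3.69 to 4.77.

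For TSA+C646 against TSA, 61 members were higher and 74 lower, with a median difference of -0.02, against -0.10 over all genes. With the constants removed and undetected values set to 0, 70 were higher and 65 lower, with medians of 0.016 and -0.099. With colony as a block the split was 77 and 58, with medians of 0.064 and -0.031, and without libraries 9, 10, 15 and 16 it was 55 and 80, with medians of -0.079 and -0.033. Here too the sign of the members' median changed with the setting. At an unadjusted p under 0.05, 2 members were higher, where 1.43% of all genes were, and 3 lower, where 2.12% were. The median difference was 0.29 within colony SB1 and -0.21 within SB4, where the TSA+C646 scouts are the 2 ants at 100 µM. Without library 15 it was 0.05 and without library 16 it was -0.22.

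Cflo_10571 had the smallest p. Its lowest, median and highest values were 0.032, 4.37 and 5.84 in the 10 TSA scouts, and its values in TSA+C646 scouts were 6.38, 5.82, 5.33, 5.18, 8.61 and 5.73. The highest was in library 15, and the groups overlapped. The difference was 2.002 (SE 0.73), with a limma p of 0.0124 and a Benjamini-Hochberg adjusted p of 0.991. Cflo_16552 differed by 1.48 (SE 0.71) and within colony SB4 by -0.12. Of the lower ones, Cflo_14245 differed by -1.08 (SE 0.50) and Cflo_12751 by -0.89 (SE 0.41). Without library 15 these were -0.50 and -0.36, and the difference of Cflo_10571 was 1.52. Cflo_14245 and Cflo_12751 were undetected in library 15, which gave the lowest of the 6 TSA+C646 values, at 0.00 for Cflo_14245.

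**Figure D4:**
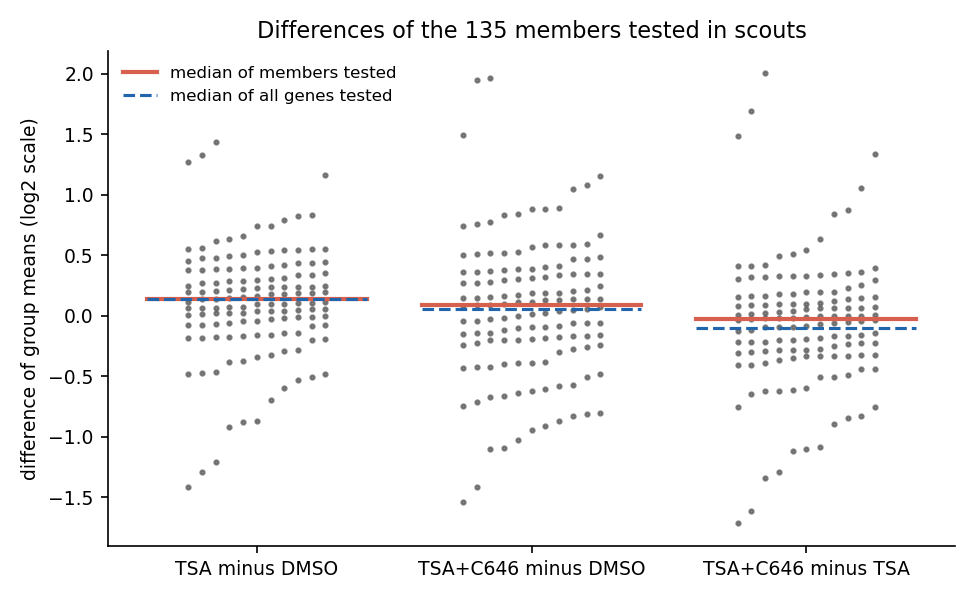
Difference of group means (log2 scale) of the 135 members tested, for each of the 3 comparisons between scout arms; each point is 1 member, the solid line the median of these members and the dashed line the median of all 4899 genes tested. The medians of members lie at 0.14, 0.08 and -0.02, beside 0.14, 0.05 and -0.10 for all genes.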

How the data were processed

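Poly(A) RNA-seq values of 37 libraries were used. The other 27 samples of the series, among them chromatin and larval ones, were not analysed here. The values were deposited by the authors as normalized numbers that behave as log2 values; the base was inferred from the values and is not stated in the labels. Per the submitters' processing notes, the tools named for the reads were Cufflinks 2.2.1, Bowtie2 and bcl2fastq 2.0, with no role stated. No source used here gives the genome build, the annotation or the normalization. In the deposited log2 tables each library is 1 shared distribution plus 1 constant, with values below 0 set to 0, so overall differences in level between libraries are largely removed and quantiles are shared. Undetected identifiers were recovered as the block at the bottom of each library in which values follow the order of the table, and were taken as ties. Their deposited values can lie above 0, and the main fits used them as deposited.

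Members and lists were chosen with earlier results of these data known. Differences were fitted with limma 3.58.1 (R 4.3.3, empirical Bayes with a mean trend) on the deposited values, with groups as the only term and all 3 scout arms in 1 fit, over genes with a mean of at least 1. P-values were adjusted by Benjamini-Hochberg over all genes tested. The script was tested on simulated data. Replicates are single brains; p-values measure the spread between them. Linear sums used 2 to the power of the value, minus 1. Members were named by rule: the 10 highest in minors; the 3 on each side of the threshold; in each scout comparison the 2 higher and 2 lower with the smallest p; the 2 lowest and 2 highest differences between castes; the 2 largest gains and losses of percentile from minors to DMSO scouts; the 2 largest and 2 smallest SDs over minors; and the 3 smallest ranges over scouts. Alternatives were other thresholds, pseudocounts of 0.1 and 5 on back-transformed values, filters, normalization, weights, colony and replicate blocks, doses, colonies and left-out libraries.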

Additional observations from a re-analysis of the deposited data

Results flagged for a closer look

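Over 66 groups of values examined, 15 held a sample far from the others by Dixon's criterion. It flags about 1 group in 20 by chance if values are normally distributed. Many groups belong to genes named for extreme values, and some hold values at 0, so that rate need not hold here. TSA+C646 library 15 was such a sample in 5 of them. It had 84 undetected members against 7 to 29 in the other TSA+C646 scouts. Cflo_12751 was at 1.01 there, Cflo_11443 at 0.00 and Cflo_14245 at 0.00, each undetected and below the others. Cflo_10571 was at 8.61, above the other TSA+C646 scouts.

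In day 1 brains, Cflo_13243 was at 13.68 in major 2 against 19.17 to 19.22 in the other majors. Cflo_14439 was at 5.03 in major 4 against 7.97 to 8.54. Cflo_11535 was at 14.43 in minor 3 against 14.82 to 14.84, and Cflo_08255 at 11.22 in minor 4 against 9.78 to 10.16.

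In DMSO scouts, Cflo_13243 was at 15.63 in library 18 against 15.81 to 15.88, and Cflo_11535 at 13.29 in library 20 against 13.03 to 13.10. With the library constants removed, Cflo_13243 took only the values 15.62 and 15.86 there, and Cflo_11535 only 13.07 and 13.31. Such top genes move in steps of the shared distribution, a further reason why the chance rate given above need not hold for them. Cflo_08255 was at 5.89 in library 19 and at 0.02 or less in the others. In library 21, Cflo_04131 was at 2.43, below the 3.03 to 3.20 of the others, and Cflo_02699 at 2.41, above their 0.22 to 0.84. In TSA library 1, Cflo_10571 was at 0.032 against 3.52 to 5.84.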

How the results depend on the processing

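The set's size depends on its threshold: 292 genes had a mean of 5 or more, 70 a mean of 7 or more, 90 were at 6 or more in every minor, and 149 to 160 were chosen with 1 minor left out. In majors against minors, the median difference of members was -0.45 with array weights and -0.085 without majors 1 to 3, and -1.57 to -0.72 with 1 library left out; the members called numbered 0 to 6, the 6 without major 5, where 1% of all genes were called. Without majors 1 to 3, an alternative chosen after seeing the data, 5 members had all majors above all minors, and the difference of Cflo_08362 reversed to 0.71. In TSA+C646 against TSA, that of Cflo_16552 reversed to -0.12 within colony SB4. The causes were not tested. Detection without library 15 and scout ranges with the constants removed were also examined after seeing the data. With a replicate block for majors against minors, 0 members were called and the median difference was -1.18. The deviations of same-numbered brains correlated at -0.12 to 0.17 over genes. Such values cannot exclude a shared batch, and whether same-numbered brains were paired was not tested.

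With 1 scout library left out, the median difference ranged from 0.08 to 0.19 for TSA against DMSO, from -0.11 to 0.14 for TSA+C646 against DMSO and from -0.22 to 0.05 for TSA+C646 against TSA, with 0 members called each time. Of the alternatives for the main results, 211 were labelled as kept and 7 as moved. A median difference counted as kept if it shifted by less than the SD of the library medians. A change of its sign could thus count as kept, and the tally is no measure of a stable direction. With no read counts, depth could not be used to bound a difference, and values at the bottom cannot be told from low expression.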
